A study of Mus musculus with 4 samples.

Results

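The genes described here encode the subunits of the 5 complexes of oxidative phosphorylation. The group was chosen with earlier results of these data known, and its members were taken by name from the non-control probes. The listed gene name begins with Nduf, Uqcr, Atp5 or Cox followed by a digit from 4 to 8, or is Sdha, Sdhb, Sdhc or Sdhd. The rule took 83 genes with 116 probes, of 27725 genes and 41174 probes on the array. Of these members, 80 passed the filter on dim probes and were tested, among 12449 genes tested in all. The 3 members that did not pass were Cox4i2, Cox8b and Cox8c, isoforms of cytochrome c oxidase subunits. By role, 77 of the 80 tested members are counted here as structural subunits. The other 3 are Ndufaf1, an assembly factor of complex I, and Cox4nb and Atp5s, which share the prefix of a complex without being subunits of it. Current annotation calls these last 2 genes Emc8 and Dmac2l. Ndufa12l is counted with the accessory subunits by its listed name, and is also known as the assembly factor Ndufaf2.

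Total RNA was measured on 1-colour oligonucleotide arrays in freshly isolated cells of the small bowel, which the study calls enterocytes. The 2 WT samples came from wild-type littermates of the IKKb(EE)IEC mice, and the 2 IKKb(EE)IEC samples from mice with the IKKb(EE) form of the kinase in intestinal epithelial cells (IEC). IKKb(EE) is known as a constitutively active form of IKKb, the kinase that releases the transcription factor NF-kB. The sources used here do not give the strain, the age, the promoter that drives the transgene or the number of mice behind a sample. The replicates are stated to be biological, and 2 arrays per genotype limit the precision of every value. All 4 arrays lay on 1 slide, with WT at the first 2 positions, so that genotype cannot be told apart from slide position.

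Complexes I to IV form the respiratory chain of the inner mitochondrial membrane. Complex I takes electrons from NADH and complex II from succinate, ubiquinone carries them to complex III, and cytochrome c carries them on to complex IV, which reduces oxygen. Complexes I, III and IV pump protons, and complex V, the ATP synthase, uses the returning protons to make ATP. All but complex II mix subunits of nuclear DNA with subunits of mitochondrial DNA, and absorptive enterocytes are rich in mitochondria. Factors of the NRF1, ETS, ERR, YY1 and SP1 families are textbook regulators of the nuclear genes.

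Because the members were read as a group, the sequence just upstream of the start site is shown for the member with the smallest p in each complex that had a single promoter window, as the 120 bases that precede the start. The sequences are those of RefSeq for GRCm38.p6, written 5′ to 3′ on the strand of the gene, with matches to the motifs in capitals. The windows are chr1:58586277-58586396 on the plus strand for Ndufb3, chr9:50603850-50603969 on the minus strand for Sdhd, chr4:116075071-116075190 on the minus strand for Uqcrh, chr7:30184051-30184170 on the plus strand for Cox7a1, and chr2:174464102-174464221 on the minus strand for Atp5e.
Ndufb3: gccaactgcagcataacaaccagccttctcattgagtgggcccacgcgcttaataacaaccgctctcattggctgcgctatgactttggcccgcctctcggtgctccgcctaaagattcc
Sdhd: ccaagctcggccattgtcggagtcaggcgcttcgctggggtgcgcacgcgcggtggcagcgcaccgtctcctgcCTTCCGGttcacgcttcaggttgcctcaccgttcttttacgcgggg
Uqcrh: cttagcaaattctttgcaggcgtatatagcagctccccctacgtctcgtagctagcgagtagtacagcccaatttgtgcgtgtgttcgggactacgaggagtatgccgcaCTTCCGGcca
Cox7a1: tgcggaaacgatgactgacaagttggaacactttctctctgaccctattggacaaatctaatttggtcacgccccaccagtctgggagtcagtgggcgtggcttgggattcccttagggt
Atp5e: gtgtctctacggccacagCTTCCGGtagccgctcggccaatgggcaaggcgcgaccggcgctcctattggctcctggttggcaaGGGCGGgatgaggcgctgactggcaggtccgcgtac
The capitals mark the ETS core on the reverse strand in Sdhd, Uqcrh and Atp5e, and an SP1 box in Atp5e, while the stretches of Ndufb3 and Cox7a1 held none of the motifs searched.

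Promoter windows, from 250 bases before to 50 after the start, were found for 66 of the 80 tested members. On either strand, the ETS core CCGGAAG was present in 17 members (25.8%), against 9.93% of the 27025 genes with a window. The NRF1 motif GCGCATGCG was present in 8 members (12.1%, against 1.95%), the ERR motif AAGGTCA in 8 members (12.1%, against 5.38%) and the YY1 motif AAGATGG in 11 members (16.7%, against 7.28%). The SP1 box GGGCGG was present in 28 members (42.4%, against 38.2%). The kappaB decamer consensus, the motif of NF-kB, was present in 1 member, Sdhb, or 1.52%, against 5.14% of all genes. A match describes the letters of these windows and no binding. Among the 9 members with a window that were called lower between genotypes, 3 held the ETS core, 3 the ERR motif, 3 the SP1 box, 1 the NRF1 motif and none the YY1 or kappaB motif.

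Transcripts of the oxidative phosphorylation genes lay below WT in IKKb(EE)IEC, by a small amount shared by nearly all members, when each array was scaled to its 75th percentile. The median log2 difference, IKKb(EE)IEC minus WT, was -0.46 over the 80 members, against -0.12 over all genes tested. It was negative for 75 members and positive for 5, while 58.0% of all genes and 67.3% of the brightest 25% of genes were negative. Limma called 10 members lower and 0 higher at an adjusted p below 0.05, which is 12.5% of the members against 7.19% of all genes tested called lower and 8.02% called higher. At an unadjusted p below 0.05, limma counted 42 members lower (52.5%) and 0 higher, against 21.6% and 16.5% of all genes. Both IKKb(EE)IEC arrays lay below both WT arrays for 65 of the 79 members measured on every array, against 40.9% of all genes, and above them for 1 member, against 28.3%. Leaving out 1 array changed the calls: limma called 39 members lower and 1 higher without the first WT array, 29 lower without the second, and 0 without either IKKb(EE)IEC array (4 lower without the first and 7 without the second at an unadjusted p below 0.05). The calls over all genes swung with them: 28.4%, 18.2%, 0.691% and 0.852% of all genes were called lower in these 4 fits, against 49.4%, 36.2%, 0% and 0% of the members. The member not measured on every array, Ndufb11, had a non-uniform spot on the second WT array and rests on 3 arrays.

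The members are bright: 73 of the 80 lay among the brightest 25% of the genes tested, in which the median log2 difference over all genes was -0.21 and 8.44% of the genes were called lower. The size of the shift depended on how the arrays were scaled. The 75th percentile itself was 60.3 and 66.1 on the WT arrays against 94.6 and 107.8 on those of IKKb(EE)IEC, a ratio of 1.60. Before any scaling, the processed signal of the members was higher in IKKb(EE)IEC, with a median log2 difference of 0.21 and 69 of 80 members above 0. The members' median after scaling was -0.12 with quantile normalization, -0.10 with cyclic loess and -0.09 in the authors' deposited value table, where the medians over all genes were -0.06, -0.01 and -0.02. Limma then called 0, 0 and 4 members lower, or 0%, 0% and 5%, against 5.74%, 4.27% and 5.84% of all genes. Without a filter on dim probes, the median of all 27725 genes was -0.45, close to the -0.47 of the 83 members, and limma called 0 members lower (42 at an unadjusted p below 0.05). The members' median minus that of the brightest 25% of all genes was -0.25 in the scaling reported here, -0.07 with quantile normalization, -0.09 with cyclic loess and -0.07 in the authors' deposited value table.

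**Figure D1:**
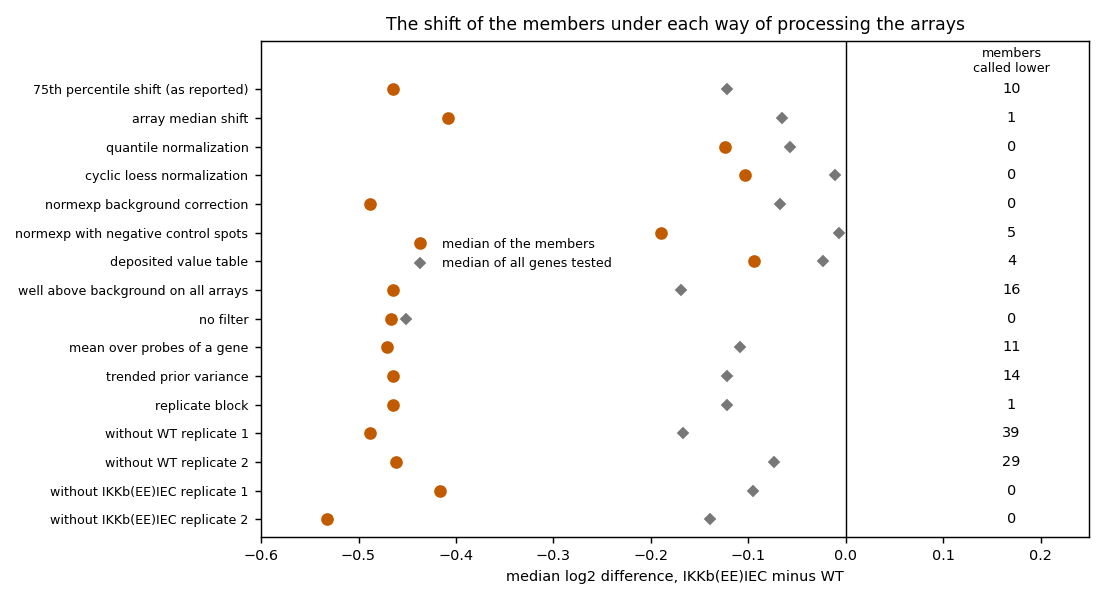
The median log2 difference, IKKb(EE)IEC minus WT, of the oxidative phosphorylation members (circles) and of all genes tested (diamonds) under each way of processing the 4 arrays, with the number of members that limma called lower at the right. The members' median was negative in every row, from -0.53 to -0.09, and the number called lower ranged from 0 to 39.

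The spread between arrays of 1 genotype was small beside the shift in the scaling reported. Over the 79 members, the median absolute difference was 0.12 between the WT arrays, 0.10 between the IKKb(EE)IEC arrays and 0.46 between genotypes. The difference between genotypes was larger than both differences within a genotype for 59 members. The share of all genes for which this held was not computed, so that the count cannot be called unusual. As a mean over the same members, the log2 value relative to the 75th percentile was 7.16 and 7.20 on the WT arrays against 6.69 and 6.82 on those of IKKb(EE)IEC. No test was run on such a mean, since 2 against 2 arrays have 3 splits and an exact permutation test cannot give a p below 33.3%.

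By complex, the median log2 difference was -0.36 over the 38 members of complex I, -0.21 over the 4 of complex II, -0.48 over the 7 of complex III, -0.54 over the 15 tested of complex IV and -0.48 over the 16 of complex V. Limma called 4, 0, 1, 3 and 2 of these members lower (10.5%, 0%, 14.3%, 20% and 12.5%). Of all genes tested it called 7.19% lower, and of the brightest 25% of genes 8.44%. The medians of complexes I, III, IV and V were negative under every alternative run. That of complex II was 0.06 with a normexp correction based on negative control spots and 0.02 without the first IKKb(EE)IEC array. As a difference of means from all members on the same array, complex II shifted by 0.30 and complex IV by -0.13 between genotypes, and complexes I, III and V by 0.04, -0.04 and -0.04. The order of the complexes changed with the scaling. The medians of complexes I and IV were both -0.14 with quantile normalization, and -0.11 and -0.094 in the authors' deposited value table. These differences between complexes were described and not tested.

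**Figure D2:**
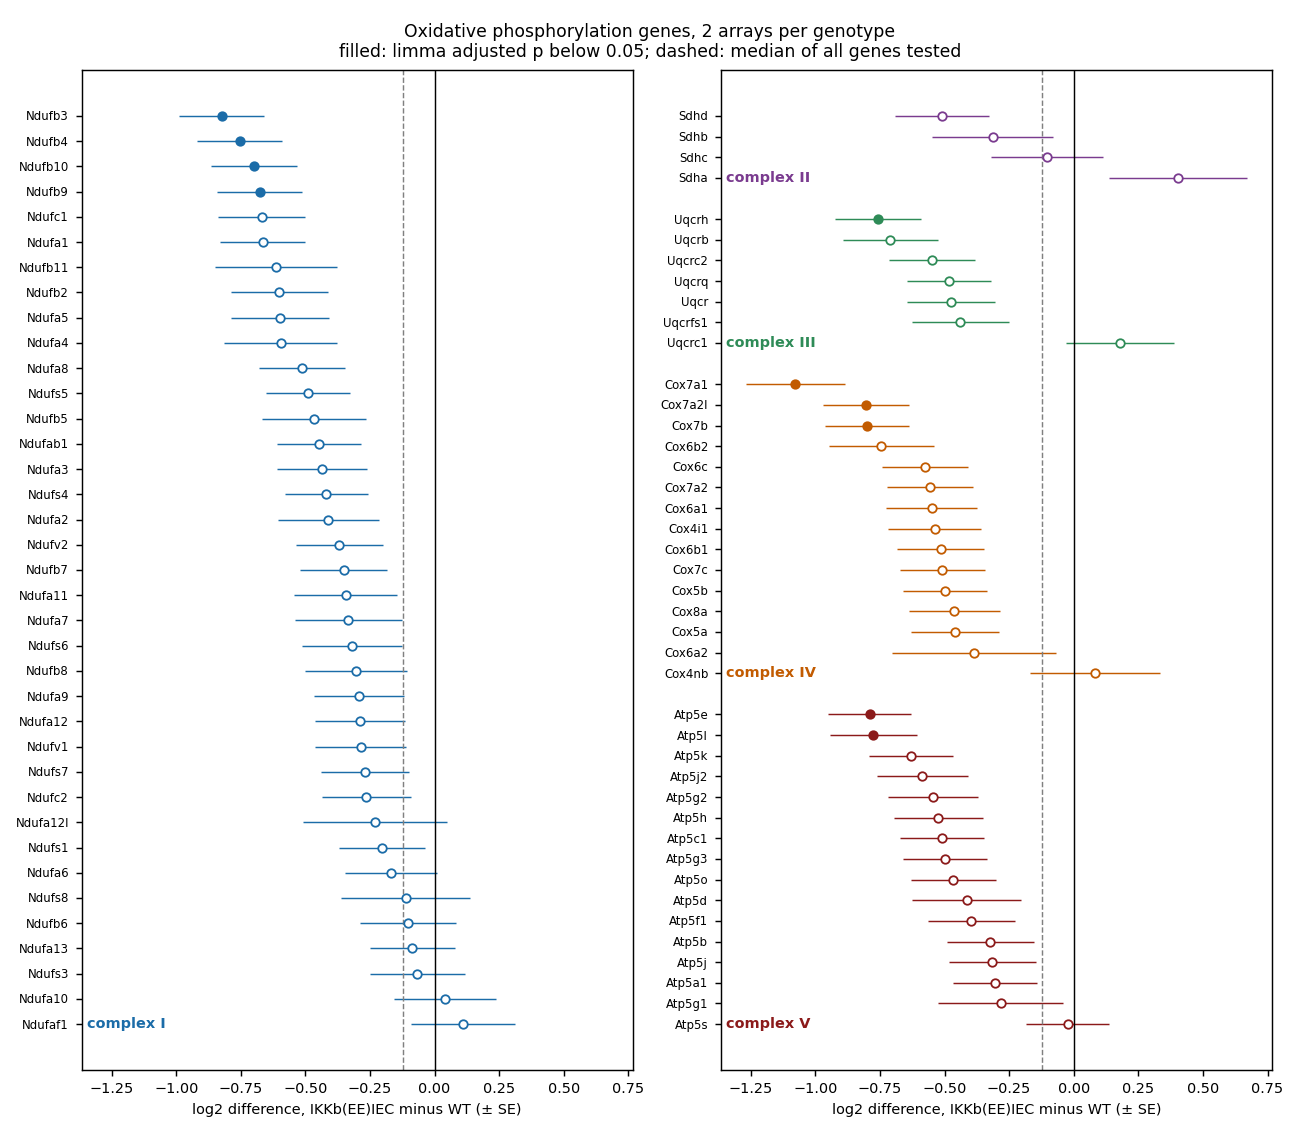
Log2 difference, IKKb(EE)IEC minus WT, of 79 tested members with its standard error (bars), grouped by complex and ordered by size, with 2 arrays per genotype. Filled points passed limma's adjusted p of 0.05, the solid line is 0 and the dashed line the median of all genes tested (-0.12). The 5 members right of 0 are Sdha, Uqcrc1, Ndufaf1, Cox4nb and Ndufa10.

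In complex I the members called lower were 4 accessory subunits of the membrane arm, out of 30 accessory subunits tested. Ndufb3 had log2 values of 8.14 and 8.04 in WT against 7.25 and 7.28 in IKKb(EE)IEC. The genotypes did not overlap, and Ndufb3 fell 1.77-fold (log2 difference -0.82 ± 0.16 SE, limma adjusted p = 0.0348). Its probe lies at chr1:58540324-58540383 in mm8, the build of the array's annotation. Ndufb4 had values of 7.998 and 8.12 in WT and 7.30 on both IKKb(EE)IEC arrays, a log2 difference of -0.75 ± 0.17 (SE, limma adjusted p = 0.0409). Ndufb10 had values of 9.36 and 9.25 against 8.55 and 8.66, a log2 difference of -0.70 ± 0.17 (SE, limma adjusted p = 0.0486). Ndufb9 had values of 10.03 and 10.02 against 9.30 and 9.40, a log2 difference of -0.68 ± 0.16 (SE, limma adjusted p = 0.0494). In each of the 4 genes the lower WT value stood above the higher IKKb(EE)IEC value. Ndufc1 and Ndufa1, accessory subunits next in size, had log2 differences of -0.67 ± 0.17 and -0.67 ± 0.16 (SE) and limma adjusted p values of 0.053 and 0.0508.

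The catalytic core of complex I holds the flavin and iron-sulfur centres that carry electrons from NADH to ubiquinone. None of the 6 core subunits described here passed (limma, 0 at an unadjusted p below 0.05), and the median log2 difference of these 6 was -0.24. Ndufv1, which binds NADH and the flavin, had values of 6.20 and 6.43 in WT against 6.01 and 6.05 in IKKb(EE)IEC, a log2 difference of -0.29 ± 0.18 (SE, limma adjusted p = 0.275). Ndufv2, its iron-sulfur partner, had values of 4.80 and 4.62 against 4.35 and 4.33 (limma adjusted p = 0.171). Ndufs1, the large iron-sulfur subunit, had values of 4.58 and 4.50 against 4.39 and 4.27 (limma adjusted p = 0.399). For these 3 subunits both IKKb(EE)IEC arrays lay below both WT arrays, by less than the test could call.

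Of the core subunits that carry iron-sulfur centres or lie near the ubiquinone site, Ndufs7 had values of 7.03 and 6.93 in WT against 6.63 and 6.79 in IKKb(EE)IEC (limma adjusted p = 0.288), with no overlap. Ndufs3 had values of 6.10 and 5.81 in WT against 5.86 and 5.92 in IKKb(EE)IEC, a log2 difference of -0.07 ± 0.18 (SE). Ndufs8 had values of 2.93 and 3.47 against 2.92 and 3.25, a log2 difference of -0.11 ± 0.25 (SE). In Ndufs3 and Ndufs8 the genotypes overlapped. The 6 core subunits described here had log2 differences from -0.37 to -0.07, a spread that was not tested.

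Among other members of complex I, Ndufa4, which later work places with complex IV, had values of 8.16 and 8.65 in WT against 7.78 and 7.84 in IKKb(EE)IEC (limma adjusted p = 0.11). The WT arrays were 0.48 apart for this gene. Ndufa13, an accessory subunit also known as Grim19, had values of 9.28 on both WT arrays and 9.14 and 9.25 in IKKb(EE)IEC, a log2 difference of -0.09 ± 0.16 (SE). Ndufa10 and the assembly factor Ndufaf1 had log2 differences of 0.04 ± 0.20 and 0.11 ± 0.20 (SE), with overlapping arrays.

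Complex II is succinate dehydrogenase, the enzyme shared by the respiratory chain and the citrate cycle, and all 4 of its subunits are encoded by nuclear DNA. None passed (limma, 1 at an unadjusted p below 0.05). Sdha, the flavoprotein with the active site, had values of 1.74 and 1.03 in WT and 1.79 on both IKKb(EE)IEC arrays. The IKKb(EE)IEC arrays stood above both WT arrays, but the WT arrays were 0.70 apart, and the log2 difference of 0.40 ± 0.27 (SE) did not pass (limma adjusted p = 0.304). Its second probe gave a log2 difference of 0.49. Without the first WT array Sdha had a log2 difference of 0.75 and a limma adjusted p of 0.00586. Over the 15 alternatives its difference stayed above 0, from 0.05 to 0.75, and it passed in that 1.

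Sdhb, the iron-sulfur subunit, had values of 4.66 and 5.01 in WT against 4.30 and 4.74 in IKKb(EE)IEC, which overlapped. The membrane anchors Sdhc and Sdhd differed from each other in their values. Sdhc had values of 3.69 and 3.57 against 3.29 and 3.76, a log2 difference of -0.10 ± 0.22 (SE). Sdhd had values of 8.32 and 8.04 against 7.69 and 7.66, with no overlap, a log2 difference of -0.51 ± 0.18 (SE) and a limma adjusted p of 0.106. The 4 transcripts of 1 enzyme thus ranged from -0.51 to 0.40, and differences between them were not tested.

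Complex III passes electrons from ubiquinol to cytochrome c. Uqcrh, the hinge protein at the docking site of cytochrome c, had values of 10.91 and 11.03 in WT against 10.23 and 10.20 in IKKb(EE)IEC. It was the only one of the 7 members called, and fell 1.69-fold (log2 difference -0.76 ± 0.17 SE, limma adjusted p = 0.0408). A second probe of Uqcrh gave -0.67. The array probe lies at chr4:115564971-115565030 in mm8. Uqcrfs1, the Rieske iron-sulfur protein, had values of 7.44 and 7.12 against 6.83 and 6.85 (limma adjusted p = 0.15).

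The large core proteins of complex III, Uqcrc1 and Uqcrc2, had values that went apart. Uqcrc2 had values of 8.18 and 8.32 in WT and 7.70 on both IKKb(EE)IEC arrays, a log2 difference of -0.55 ± 0.17 (SE, limma adjusted p = 0.0769). Uqcrc1 had values of 7.66 and 7.27 in WT against 7.54 and 7.75 in IKKb(EE)IEC, a log2 difference of 0.18 ± 0.21 (SE, limma adjusted p = 0.554). The arrays of Uqcrc2 did not overlap and those of Uqcrc1 did. Both probes of Uqcrc1 were positive, at 0.18 and 0.30. Its difference was above 0 in 14 of 15 alternatives and -0.02 in the other, and it passed in none.

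Complex IV, cytochrome c oxidase, had the largest called change of the members. Cox7a1, known as the heart and skeletal muscle isoform of a small membrane subunit, had values of 9.60 and 9.27 in WT against 8.32 and 8.40 in IKKb(EE)IEC. The genotypes did not overlap, and Cox7a1 fell 2.11-fold (log2 difference -1.08 ± 0.19 SE, limma adjusted p = 0.0265). A single probe, annotated at chr7:29894078-29894689 in mm8, measured it. Over the 15 alternatives its difference ranged from -1.24 to -0.66, and it passed in 8 of them. Cox7a2, the partner isoform of most tissues, had values of 10.16 and 10.10 against 9.52 and 9.63, a log2 difference of -0.56 ± 0.17 (SE, limma adjusted p = 0.0736).

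Of 9 markers of striated muscle and brown fat, 2 and 3 were well above background on the WT arrays against 5 and 3 on those of IKKb(EE)IEC. Ckm, Myh4, Myl1 and Ucp1 were so on none. The 3 that passed the filter, Acta1, Mylpf and Tnni2, had log2 differences of -0.58, -0.35 and 0.73 and were not called (limma adjusted p = 0.0788, 0.358 and 0.0779). The summed level of the 9 markers, as a multiple of the 75th percentile, was 3.21 and 3.91 in WT against 3.82 and 3.28 in IKKb(EE)IEC, and its part in the values of Cox7a1 was not tested.

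Cox7a2l, a relative of the same family that joins complexes III and IV in supercomplexes, had values of 5.51 and 5.55 in WT against 4.66 and 4.79 in IKKb(EE)IEC. It fell 1.75-fold (log2 difference -0.81 ± 0.17 SE, limma adjusted p = 0.0371), with no overlap. It was also called in the authors' deposited value table and passed in 7 of 15 alternatives. Cox7b, a small accessory subunit, had values of 10.01 and 10.05 against 9.26 and 9.21, a log2 difference of -0.80 ± 0.16 (SE, limma adjusted p = 0.0358).

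In the other isoform pairs of complex IV no member passed. Cox6a1, the form of most tissues, had values of 11.63 and 11.39 in WT against 10.94 and 10.97 in IKKb(EE)IEC (limma adjusted p = 0.0863). Cox6a2, its heart and muscle partner, had values of -0.42 and 0.19 against -0.84 and -0.16, which overlapped. Cox6b1 had values of 5.56 and 5.62 against 5.001 and 5.14, a log2 difference of -0.52 ± 0.17 (SE, limma adjusted p = 0.0883). Cox6b2, the form known from testis, had values of 2.57 and 2.98 against 2.04 and 2.01, a log2 difference of -0.75 ± 0.20 (SE, limma adjusted p = 0.0619).

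Cox4i1, the main form of subunit IV, had values of 10.0004 and 10.06 in WT against 9.36 and 9.62 in IKKb(EE)IEC (limma adjusted p = 0.0921). Cox4i2, its hypoxia-linked partner, was not well above background on any array, with values of -2.58 and -2.06 in WT against -1.99 and -2.50 in IKKb(EE)IEC. The same held for Cox8b, at -3.33 and -3.53 against -3.92 and -4.07, and for Cox8c, at -3.51 and -3.62 against -4.06 and -4.20. Cox8a, the form of most tissues, had values of 9.04 and 9.23 against 8.60 and 8.75 (limma adjusted p = 0.12). Of the subunits that sit on the matrix side, Cox5a had values of 9.60 and 9.41 against 9.04 and 9.05, and Cox5b of 9.90 and 9.84 against 9.34 and 9.40. All 14 structural subunits of complex IV that were tested had a negative difference, and 13 were without overlap between genotypes (92.9%). Of the brightest 25% of all genes, 48.3% were without overlap in this direction.

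**Figure D3:**
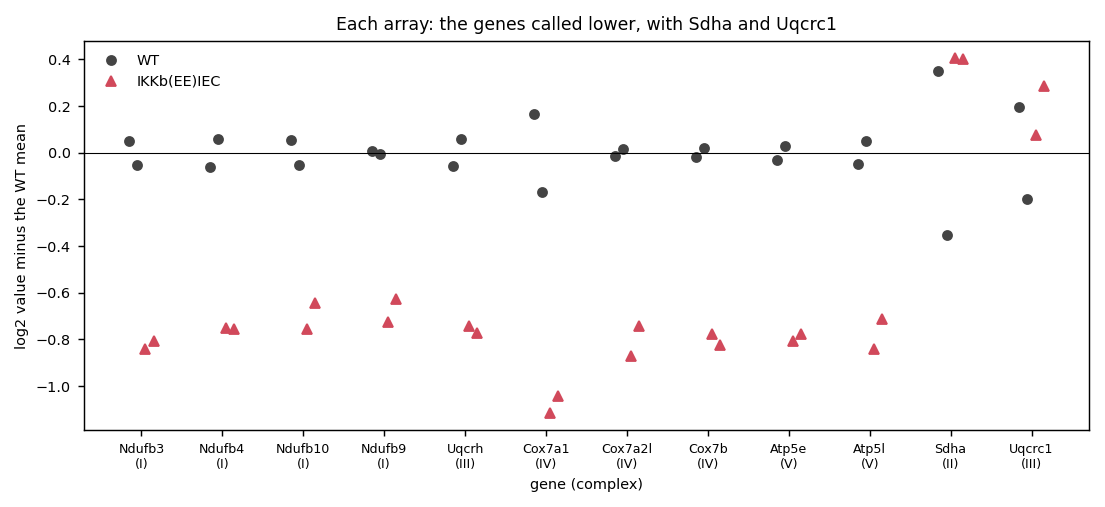
The log2 value of each array minus the WT mean of the gene, for the 10 members called lower and for Sdha and Uqcrc1, with WT as circles and IKKb(EE)IEC as triangles. In the called members both IKKb(EE)IEC arrays lie below both WT arrays, and in Sdha and Uqcrc1 the WT arrays are far apart.

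Complex V is the ATP synthase, with a catalytic F1 head in the matrix and a proton channel in the membrane. Atp5e, the epsilon subunit at the foot of the head, had values of 10.59 and 10.65 in WT against 9.81 and 9.84 in IKKb(EE)IEC. It fell 1.73-fold (log2 difference -0.79 ± 0.16 SE, limma adjusted p = 0.037) and was the only one of 5 head subunits called. Atp5l, subunit g of the membrane part, had values of 7.99 and 8.08 against 7.19 and 7.32, and fell 1.71-fold (log2 difference -0.78 ± 0.17 SE, limma adjusted p = 0.0404). Neither gene overlapped between genotypes.

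The subunits that form the catalytic sites had differences nearer to 0. Atp5a1, the alpha subunit, had values of 8.21 and 8.27 in WT against 7.94 and 7.93 in IKKb(EE)IEC, a log2 difference of -0.31 ± 0.16 (SE, limma adjusted p = 0.218). Atp5b, the beta subunit, had values of 9.35 and 9.18 against 8.95 and 8.94, a log2 difference of -0.32 ± 0.17 (SE, limma adjusted p = 0.214), and its 3 probes lay between -0.32 and -0.21. Their sign depended on the scaling: each was negative in 12 of 15 alternatives. Atp5c1, the gamma subunit that turns inside the head, had values of 9.76 and 9.71 against 9.19 and 9.26 (limma adjusted p = 0.0858). Atp5d, the delta subunit, had values of 4.75 and 4.90 against 4.20 and 4.62 (limma adjusted p = 0.203).

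The c ring is encoded by 3 genes whose mature proteins are the same. Atp5g1 had values of 5.99 and 6.27 in WT against 5.58 and 6.11 in IKKb(EE)IEC, which overlapped. Atp5g2 had values of 7.29 and 7.37 against 6.68 and 6.89 (limma adjusted p = 0.0865). Atp5g3 had values of 10.79 and 10.74 against 10.27 and 10.26 (limma adjusted p = 0.0882). The 7 subunits of the stalk and membrane part had a median of -0.52 and ranged from -0.78 for Atp5l to -0.32 for Atp5j, the coupling factor of the stalk.

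Where a member had several probes that passed, they gave the same sign: this held for all 41 probes of 18 such genes. The largest gap was 0.51, among the 3 probes of Atp5f1, subunit b of the stalk (-0.90 to -0.39). The current annotation adds 9 genes whose updated symbol, but not the listed name, fits the rule. Of these, 8 were tested and 1 was called lower, Atp5md, a small ATP synthase subunit listed as Usmg5 (log2 difference -0.71 ± 0.16 SE, limma adjusted p = 0.0463).

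The place of each member within the group was also read under 5 scalings of the same 4 arrays. When each difference was taken relative to the members' median, 28 of the 80 members lay below it and 29 above it under all 5, which are the 75th percentile, quantile, cyclic loess, normexp with negative control spots and the authors' deposited value table. Cox7a1 lay at -0.61 to -0.57 relative to the median, Cox7a2l at -0.53 to -0.34 and Ndufb3 at -0.39 to -0.34. At the other end, Uqcrc1 lay at 0.60 to 0.66, Sdha at 0.37 to 0.87, Ndufa13 at 0.38 to 0.45 and Ndufs3 at 0.23 to 0.41.

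The central subunits are a list of 22 that is not limited to catalytic or redox-active subunits. It holds the catalytic core of complex I, complex II, Uqcrc1, Uqcrc2, Uqcrfs1, Cox4i1, Cox5a, Cox5b and the F1 head of complex V. These central subunits lay higher than the other 58 members. Their median log2 difference was -0.35, against -0.49. Between these medians the gap was 0.14 in the scaling reported and 0.05 to 0.14 in the other 4, and 10 of the 22 lay above the members' median under all 5 scalings, against 4 below. As means over the members measured on every array, the central subunits had values of 6.75 and 6.69 in WT against 6.34 and 6.46 in IKKb(EE)IEC, and the others 7.32 and 7.39 against 6.82 and 6.96. Across the 80 members, which share the same arrays, the difference followed the mean level with a Pearson r of -0.53 and a Spearman rho of -0.51 in the scaling reported, and of 0.07 and 0.05 after quantile normalization. The part of the level in the gap was not tested.

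**Figure D4:**
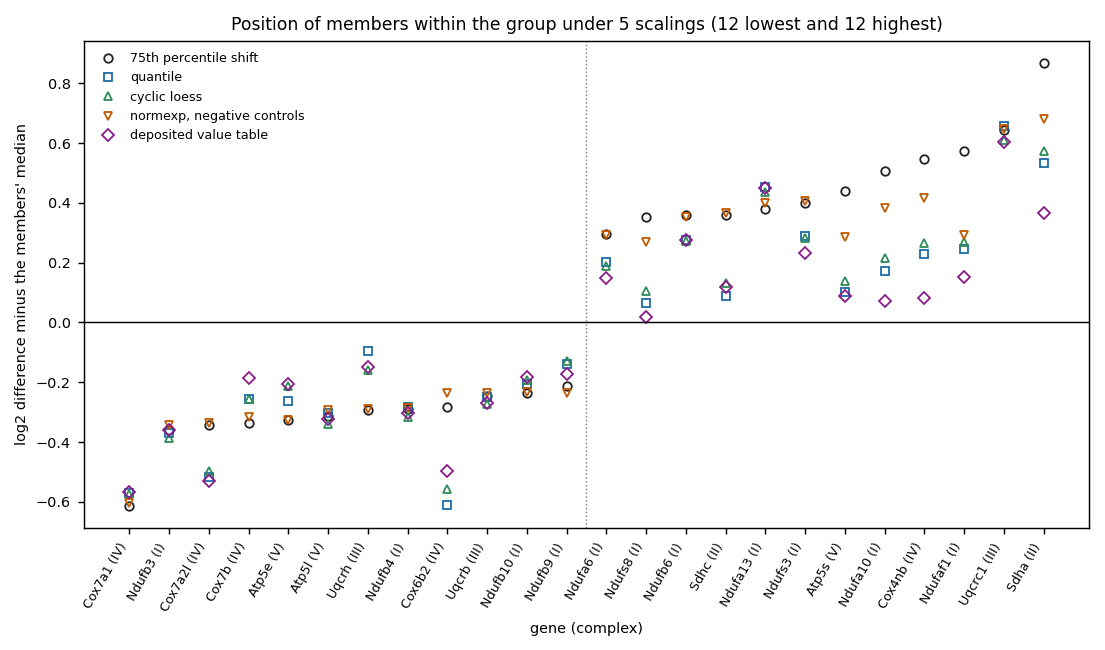
The log2 difference of a member minus the median of all members, under 5 scalings (symbols), for the 12 lowest and the 12 highest of these 79 members in the scaling reported. Cox7a1 stays at -0.61 to -0.57 and Uqcrc1 at 0.60 to 0.66, while Cox6b2 and Sdha move with the scaling.

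Other genes of the mitochondrion showed smaller medians in the scaling reported. Of all genes tested, limma called 8.02% higher and 7.19% lower, and counted 16.5% and 21.6% at an unadjusted p below 0.05. The mitochondrial ribosomal proteins, 78 genes tested, had a median log2 difference of -0.26, and limma called 0 of them. At an unadjusted p below 0.05 it counted 1 higher (1.28%) and 5 lower (6.41%), both below the share of all genes. Over the alternatives the median of this list ranged from -0.38 to -0.0022. The citrate cycle and pyruvate dehydrogenase list, with 17 genes, had a median of -0.13 and 0 calls. The sign of its median was positive in 4 of 15 alternatives. Limma counted 1 of its genes higher (5.88%) and 2 lower (11.8%) at an unadjusted p below 0.05, again below the shares of all genes. The smallest p in the list was that of Pcx, pyruvate carboxylase, with values of 4.73 and 4.24 in WT against 3.67 and 3.59 in IKKb(EE)IEC (limma adjusted p = 0.0561). Cytochrome c, coenzyme Q synthesis and electron entry, with 17 genes, had a median of -0.18 and 0 calls. Limma counted 0 of them higher and 3 lower (17.6%) at an unadjusted p below 0.05, also below the shares of all genes. The smallest p was that of Etfa, an electron transfer flavoprotein subunit (-0.51 ± 0.16 SE, limma adjusted p = 0.0842).

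Nucleotide exchange, uncoupling and the ATPase inhibitor, with 10 genes, had a median of -0.31 and 0 calls in limma. At an unadjusted p below 0.05, limma counted 1 higher (10%) and 2 lower (20%), against 16.5% and 21.6% of all genes. Atpif1, the inhibitor of ATP synthase, had values of 10.51 and 10.92 in WT against 9.81 and 10.02 in IKKb(EE)IEC (limma adjusted p = 0.059). The 7 antioxidant enzymes had a median of -0.30 and 0 calls in limma. At an unadjusted p below 0.05, limma counted 0 higher and 3 lower (42.9%), against the same shares of all genes. The smallest p was that of Txnrd2, the mitochondrial thioredoxin reductase (-0.65 ± 0.17 SE, limma adjusted p = 0.0581). None of the 13 subunits of mitochondrial DNA was found on the array under the symbols searched, so that they were not analysed here.

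Of 36 assembly and cofactor genes, limma called 2 higher (5.56%) and 3 lower (8.33%), near the 8.02% and 7.19% of all genes, with a median of -0.20. Sdhaf1, which helps to insert the iron-sulfur centres of complex II, had values of 2.43 and 2.68 in WT against 3.96 and 4.27 in IKKb(EE)IEC. It rose by 1.56 ± 0.20 on the log2 scale (SE, limma adjusted p = 0.0118) and passed in 12 of 15 alternatives. Timmdc1, an assembly factor of complex I, had values of 1.02 and 1.25 against 0.03 and -0.08. Its log2 difference was -1.16 ± 0.18 (SE, limma adjusted p = 0.0185), and it passed in 12 of 15. Higd2a, an assembly factor of complex IV, had a log2 difference of -0.81 ± 0.17 (SE, limma adjusted p = 0.0378) and passed in 7 of 15.

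Of 15 regulators of mitochondrial biogenesis, limma called 2 higher (13.3%) and 0 lower, against 8.02% and 7.19% of all genes. At an unadjusted p below 0.05, limma counted 3 higher and 3 lower (20% each), against 16.5% and 21.6% of all genes. The 3 lower were Esrra, Esrrg and Tfam, with log2 differences of -0.70, -0.62 and -0.86. The 3 higher were Ppargc1b, with a log2 difference of 0.97, and the 2 called genes, Polrmt and Pprc1. Over the 15 genes the median was 0.08, with 9 positive and 6 negative. Polrmt, the RNA polymerase of mitochondria, had values of 0.87 and 0.81 in WT against 2.68 and 2.51 in IKKb(EE)IEC. It rose by 1.75 ± 0.17 on the log2 scale (SE, limma adjusted p = 0.00501) and passed in 13 of 15 alternatives. Pprc1, a relative of the coactivator PGC-1alpha, had values of -1.54 and -1.53 against -0.77 and -0.91 (log2 difference 0.69 ± 0.17 SE, limma adjusted p = 0.0494) and passed in 5 of 14. Of 28 import and chaperone genes, limma called 2 higher (7.14%) and 0 lower, again near the share of all genes called higher. At an unadjusted p below 0.05, limma counted 2 of these 28 lower (7.14%), against 21.6% of all genes. Lonp1, the protease of the matrix, had values of 1.29 and 1.25 against 2.14 and 2.27 (log2 difference 0.94 ± 0.17 SE, limma adjusted p = 0.0265). Hspd1, the chaperonin Hsp60, had values of 4.42 and 4.14 against 5.13 and 5.16 (log2 difference 0.87 ± 0.18 SE, limma adjusted p = 0.0379).

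**Figure D5:**
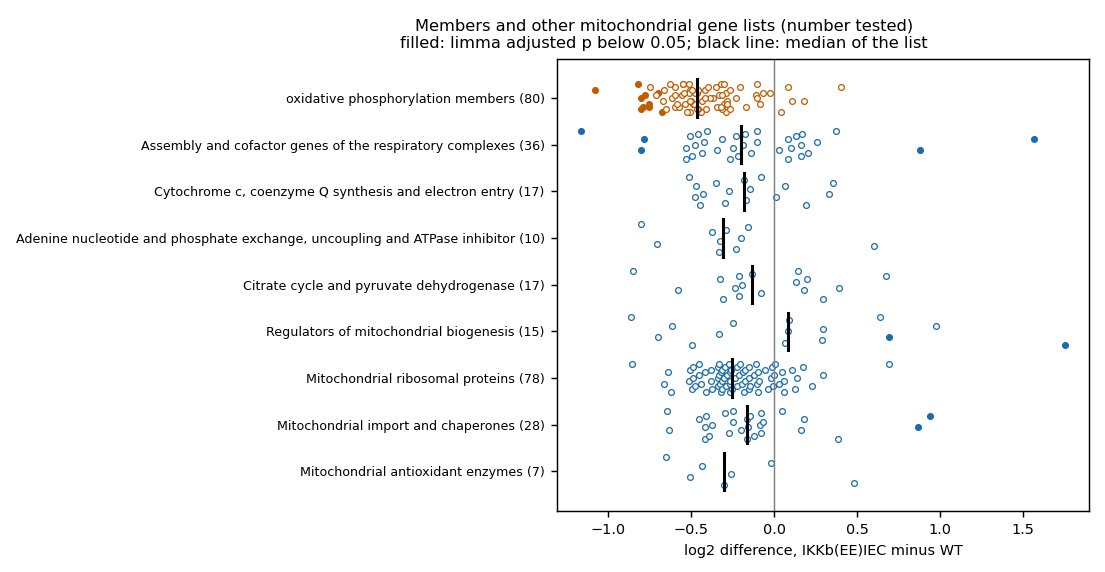
Log2 differences, IKKb(EE)IEC minus WT, of the 80 members (top) and of the tested genes of 8 other mitochondrial lists, with the median of each list as a black line. Filled points passed limma's adjusted p of 0.05. The members' median is -0.46, and the medians of the other lists lie between -0.31 and 0.08.

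Markers of several cell types differed between the genotypes. All 15 epithelial markers were well above background on every array, with a median log2 difference of 0.10. Limma called Anpep higher and Fabp1, Fabp2 and Lct lower, while Vil1 and Krt20 had log2 differences of 0.05 and -0.08. Their summed level relative to the 75th percentile was 13537 and 14345 in WT against 7087 and 7263 in IKKb(EE)IEC, mostly from Fabp1 and Fabp2. The sum of the other 13 was 2674 and 2444 against 3132 and 3308. All 6 Paneth cell markers were called lower, with a median log2 difference of -2.78, and their summed level was 12260 and 11176 in WT against 1679 and 2227 in IKKb(EE)IEC. Of 8 macrophage markers tested, 4 were called higher, and the sum over the 9 listed was 8.33 and 9.96 against 22.5 and 18.8.

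Markers of other organs were also measured. The 8 pancreas acinar markers summed to 455.5 and 200.3 in WT against 28.1 and 31.2 in IKKb(EE)IEC. Most of the sum in WT came from Clps, which alone was called lower, with log2 values of 8.78 and 7.52 against 3.94 and 4.33. The other tested markers, Ctrb1 and Cela1, had log2 differences of -0.49 and 0.01 and were not called. Amy2a5, Cela2a, Cpa1, Pnlip and Prss2 were well above background on no array. The 5 liver markers on the array summed to 10.9 on the second WT array, against 1.25 on the first and 0.49 and 0.35 in IKKb(EE)IEC, and 4 of them were well above background on that array alone. The 8 markers of T and NK cells had a median log2 difference of -0.44, the 2 tested of B and plasma cells 0.08 and the 1 tested of red blood cells 0.62. Of 4 tested markers of stroma and smooth muscle, limma called Myh11 lower. In such mixed samples fewer cells of a type and less RNA per cell cannot be told apart, and the part of these cell types in the members' shift was not tested.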

How the data were processed

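Total RNA of 2 WT and 2 IKKb(EE)IEC samples was labelled with Cy3 from 250 ng and hybridised to 1 Agilent array each. The deposited spot intensity (processed signal) was written, per the file headers, by Feature Extraction 9.5.3.1, with the background subtracted and no normalization between arrays. The other columns used are flags of the spots, which the file headers define. The authors' deposited value table holds linear intensity values with array medians of 111.5 to 112.0; the sources used here do not name its normalization.

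From the log2 processed signal, the 75th percentile of the array was subtracted. Control and non-uniform spots were left out, spots of a probe averaged, and probes kept where well above background on at least 2 of 4 arrays, which left 16417 probes. The brightest probe stood for a gene. The genotypes were compared in R 4.3.3 by limma 3.58.1 (lmFit and eBayes, two-sided). P was adjusted by Benjamini-Hochberg over all 12449 genes and called below 0.05. The fit was tried on simulated arrays that held no difference in scaling, so that this trial cannot judge the choice of scaling. Every difference is IKKb(EE)IEC minus WT, and standard errors are those of this fit. P-values measure the spread between these samples, which limma moderates towards that of all genes tested. Gene names were updated to GRCm38.p6 through RefSeq accessions, and coordinates of probes are those of the files (mm8).

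Any member could be named, and 1 tested member, counted in the totals, is not reported here by name. Values on each array are given for the called members of each complex (for the 2 with the smallest p where none was called), the central subunits and the isoform pairs, and from other lists for up to 3 called genes or the 1 with the smallest p. Exceptions chosen after their values were seen are Ndufc1, Ndufa1, Ndufa13, Ndufa10, Esrra, Esrrg, Tfam and Ppargc1b, and the single markers named other than those called. The members and all lists were chosen with earlier results of these data known. The alternatives were other scalings and background corrections, filters, a mean over probes, a trended prior, a replicate block and leaving out each array. The planned normexp correction fitted poorly on some arrays, and a version with the negative control spots was added after seeing the data.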

Additional observations from a re-analysis of the deposited data

How the results depend on the processing

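The direction of the members' median held under all 15 alternatives, and its size and the number of calls did not; the cause was not tested. Against 10 members called lower, limma called 1 with a shift by the array median, 0 with quantile normalization (7 at an unadjusted p below 0.05), 0 with cyclic loess (5), 4 in the authors' deposited value table, 0 without a filter on dim probes (42) and 16 among probes well above background on all arrays. Normexp background correction, counted among the 15, fitted the background poorly on some arrays. It gave 0 calls over all genes and 0 members at an unadjusted p below 0.05. The members' median standard error was 0.69 with it, against 0.17 as reported. Normexp with the negative control spots, chosen after seeing the data, gave 5 members. The genotypes share replicate numbers, which are labels only (correlation of same-numbered deviations 0.107 over 2 pairs). A fit with the replicate block called 1 member lower. The share of members called lower was below that of all genes with the array median (1.25% against 5.83%), quantile normalization (0% against 5.74%), cyclic loess (0% against 4.27%), the value table (5% against 5.84%), no filter (0% against 1.23%) and the replicate block (1.25% against 4.7%). It was above it as reported (12.5% against 7.19%), with normexp on negative control spots (6.25% against 4.82%) and among probes well above background on all arrays (20% against 11.2%). The medians of all members and of complexes I, III, IV and V were -0.12, -0.14, -0.19, -0.14 and -0.053 with quantile normalization, and -0.10, -0.10, -0.14, -0.15 and -0.061 with cyclic loess. They were -0.19, -0.092, -0.21, -0.25 and -0.18 with normexp on negative control spots, and -0.094, -0.11, -0.14, -0.094 and -0.061 in the value table. That of complex II was -0.051 with cyclic loess, 0.063 with normexp on negative control spots and -0.042 in the value table. Leaving out 1 array at a time gave 0 to 1 members higher and 0 to 39 lower. The median then ranged from -0.53 to -0.42 over all members, from -0.44 to -0.32 in complex I, from -0.42 to 0.017 in complex II, from -0.55 to -0.48 in complex III, from -0.61 to -0.47 in complex IV and from -0.55 to -0.43 in complex V. Over all genes, limma called 998 higher and 895 lower, against 1059 and 531 with cyclic loess, 501 and 342 without a filter and 911 and 585 with the replicate block. Those counts were 2628 and 3536 without the first WT array, 1912 and 2263 without the second, 177 and 86 without the first IKKb(EE)IEC array and 227 and 106 without the second.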
